A study of Mus musculus with 9 samples.

Results

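The Zscan4 genes, *Tcstv1*, *Tcstv3* and *Zfp352* were followed in total RNA of D3 mouse embryonic stem cells (mESC), an established line grown here without feeder cells. The genes were chosen by name, as 9 genes known from the two-cell embryo. The table of normalised counts, which covered 29069 genes, had values for 8 of them: *Zscan4b*, *Zscan4c*, *Zscan4d*, *Zscan4e*, *Zscan4f*, *Tcstv1*, *Tcstv3* and *Zfp352*. *Zscan4a* was not analysed here. Cells were kept for 24 h in 1 of 3 media, with 3 samples in each. Ground-state medium (GS) was serum-free N2B27 with the MEK inhibitor PD0325901 (1.0 μM), the GSK-3 inhibitor CHIR99021 (3.0 μM) and LIF (20.0 ng/mL). Differentiation medium (DM) was DMEM with 10.0% fetal bovine serum and without these 3 additions, and NO was DM with 250.0 μM DETA/NO, a compound that sets free nitric oxide. The RNA of each sample came from 1 culture dish. The methods speak of independent experiments for the study's values in general, while the labels do not tie these dishes to separate experiments, so the p-values measure the spread between these samples, which may be technical.

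Zygotic transcription in the mouse embryo starts in earnest at the two-cell stage, when a short-lived set of genes is switched on. In cultures of mESC a small fraction of cells passes through a two-cell-like state at any time and transcribes many of the same genes for some hours. Zscan4 proteins carry a SCAN domain and zinc fingers and are known for a part in telomere elongation and genome stability in mESC, *Zscan4c* being best known from mESC and *Zscan4d* from the two-cell embryo. *Tcstv1* and *Tcstv3* belong to a small family found in two-cell embryos, and *Zfp352* encodes a zinc finger protein of the same stage. In bulk RNA, more cells in this state and more RNA per such cell cannot be told apart.

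In the GENCODE M21 annotation of GRCm38, the Zscan4 genes lie in a cluster of 608077 bases at chr7:10794242-11402318. *Zscan4b* is at chr7:10900740-10905050, *Zscan4c* at chr7:11005745-11010547, *Zscan4d* at chr7:11161374-11166159, *Zscan4e* at chr7:11306378-11310682 and *Zscan4f* at chr7:11397915-11402318. *Tcstv1* (chr13:119893388-119894785) and *Tcstv3* (chr13:120316878-120318178) are 422092 bases apart on chromosome 13, and *Zfp352* is at chr4:90218820-90225702. All 8 are annotated as protein coding, none shares exon sequence by position with another annotated gene, and the gene identifiers of the table were those of the annotation.

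The coding sequences show how alike these copies are, which bears on every value below because the counting left out reads that fit more than 1 place. The 120 coding bases with the most differing positions, taken within 1 exon, are printed 5′ to 3′ on the coding strand with capitals at positions that differ among the genes shown. In the Zscan4 genes these are coding bases 636 to 755, at chr7:11009111-11009230 (+) in *Zscan4c*, chr7:11401304-11401423 (+) in *Zscan4f*, chr7:10901560-10901679 (-) in *Zscan4b*, chr7:11307189-11307308 (-) in *Zscan4e* and chr7:11162687-11162806 (-) in *Zscan4d*.
Zscan4c: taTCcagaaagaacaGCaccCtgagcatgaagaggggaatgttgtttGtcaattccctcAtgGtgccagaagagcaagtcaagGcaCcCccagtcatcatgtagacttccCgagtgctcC
Zscan4f: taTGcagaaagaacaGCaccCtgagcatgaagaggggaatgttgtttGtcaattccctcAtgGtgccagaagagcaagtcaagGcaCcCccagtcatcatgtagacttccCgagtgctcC
Zscan4b: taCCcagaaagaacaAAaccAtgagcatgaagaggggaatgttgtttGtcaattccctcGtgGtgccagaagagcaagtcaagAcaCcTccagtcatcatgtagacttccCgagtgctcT
Zscan4e: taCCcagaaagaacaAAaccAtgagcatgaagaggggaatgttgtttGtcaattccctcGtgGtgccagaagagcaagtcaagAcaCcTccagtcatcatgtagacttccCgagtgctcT
Zscan4d: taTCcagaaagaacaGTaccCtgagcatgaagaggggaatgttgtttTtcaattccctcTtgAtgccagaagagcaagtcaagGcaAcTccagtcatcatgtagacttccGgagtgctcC

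Even here 13 of 120 positions differed. *Zscan4b* and *Zscan4e* had 0 mismatches in this window and *Zscan4c* and *Zscan4f* had 1, whereas *Zscan4d* had 7 to *Zscan4c* and 11 to *Zscan4b*. Over the whole coding sequence, identity was 99.7% between *Zscan4b* and *Zscan4e* (4 mismatches in 1515 bases) and 99.6% between *Zscan4c* and *Zscan4f* (6 mismatches in 1518 bases). It was lowest, 96.6%, between *Zscan4b* and *Zscan4d*.

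*Tcstv1* and *Tcstv3* were 94.7% identical over 507 aligned coding bases. Coding bases 338 to 457, at chr13:119893638-119893757 (-) and chr13:120317904-120318023 (+), are shown for the same reason, and 13 of the 120 positions differ.
Tcstv1: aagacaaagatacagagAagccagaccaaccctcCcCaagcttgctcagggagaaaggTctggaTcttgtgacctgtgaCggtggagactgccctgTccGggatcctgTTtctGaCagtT
Tcstv3: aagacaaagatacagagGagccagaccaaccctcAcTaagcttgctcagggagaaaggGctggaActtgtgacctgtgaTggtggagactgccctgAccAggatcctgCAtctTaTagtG

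The promoters of the Zscan4 genes are also near copies of each other. RefSeq promoters (GRCm38.p6) were at hand for 5 members, *Zscan4b*, *Zscan4c*, *Zscan4d*, *Zscan4f* and *Zfp352*. For the Zscan4 genes a window of 157 bases that ends 10 bases after the letters TATAAAA is printed, since these members were higher together in NO. It lies at chr7:10905065-10905221 (-), chr7:11005551-11005707 (+), chr7:11166197-11166353 (-) and chr7:11397744-11397900 (+) in that order, with capitals at the 12 positions that differ.
Zscan4b: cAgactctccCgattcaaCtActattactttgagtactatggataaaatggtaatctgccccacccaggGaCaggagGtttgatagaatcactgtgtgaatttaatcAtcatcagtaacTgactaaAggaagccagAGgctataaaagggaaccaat
Zscan4c: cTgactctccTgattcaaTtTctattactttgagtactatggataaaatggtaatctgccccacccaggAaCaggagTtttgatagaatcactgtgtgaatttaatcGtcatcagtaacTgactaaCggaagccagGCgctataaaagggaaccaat
Zscan4d: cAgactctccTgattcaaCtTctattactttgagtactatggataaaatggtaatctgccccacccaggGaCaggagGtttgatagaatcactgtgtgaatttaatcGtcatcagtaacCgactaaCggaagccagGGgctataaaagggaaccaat
Zscan4f: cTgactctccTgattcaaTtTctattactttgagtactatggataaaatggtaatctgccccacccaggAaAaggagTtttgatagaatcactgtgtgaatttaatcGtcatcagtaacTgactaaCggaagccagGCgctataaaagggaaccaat

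*Zscan4c* and *Zscan4f* differed at 1 of these positions and *Zscan4b* and *Zscan4f* at 11. TATAAAA, searched on both strands in the 250 bases before the start, was found once in each of these 4 promoters and in 4.98% of 32851 RefSeq promoters. *Zfp352* had no match to it. Its 250 bases before the start, at chr4:90218570-90218819 (+), are printed because they hold a repeat, whose letters TAATCC are in capitals.
Zfp352: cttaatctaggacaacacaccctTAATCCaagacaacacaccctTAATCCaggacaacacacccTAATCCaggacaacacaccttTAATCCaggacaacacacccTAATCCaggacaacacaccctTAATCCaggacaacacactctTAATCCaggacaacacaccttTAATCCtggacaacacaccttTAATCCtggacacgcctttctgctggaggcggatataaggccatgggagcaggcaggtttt

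TAATCC, again on both strands, occurred 9 times there. It was in 6.25% of all promoters, in none of the other 4 shown, and no other promoter had as many matches. The motif was picked after the sequence was seen, and a match is a description of letters only.

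To see how much of each transcript could give a uniquely placed read, each window of a transcript was looked up in the transcripts of all other annotated genes, on both strands. Library inserts were selected at 60 to 150 bases. Of the 100-base windows, 10.5% of *Zscan4f*, 15.9% of *Zscan4e*, 21.3% of *Zscan4b*, 27.2% of *Zscan4c* and 70.4% of *Zscan4d* were found in no other gene. The shares were 92.2% for *Tcstv3*, 95.9% for *Tcstv1* and 99.4% for *Zfp352*. The gene sharing most windows with *Zscan4f* was the pseudogene *Zscan4-ps2* (1296 of 1730 windows), with *Zscan4c* it was *Zscan4f* (1204 of 2177) and with *Zscan4b* it was *Zscan4e* (1306 of 1680). The counts of *Zscan4b*, *Zscan4c*, *Zscan4e* and *Zscan4f* are therefore uncertain as levels of single genes. The genome outside transcripts was not searched.

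**Figure D1:**
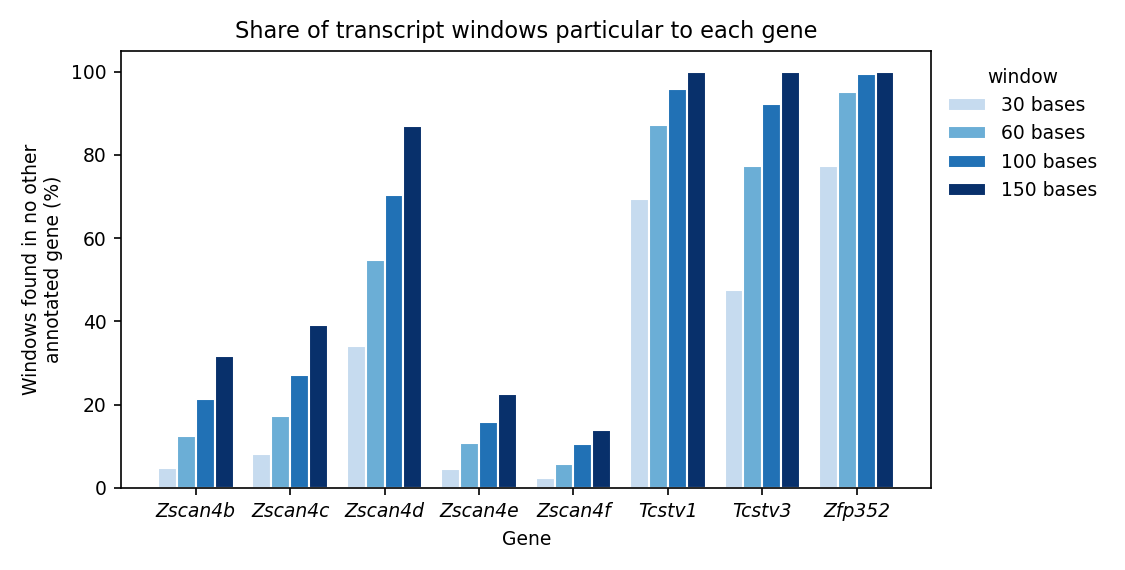
Bars give, for each gene (x axis), the percentage of windows of its longest transcript that occur in no transcript of another annotated gene (y axis, from 0), for windows of 30, 60, 100 and 150 bases. The 4 Zscan4 genes other than *Zscan4d* stay under 40% at every window length (39.0% for *Zscan4c* at 150 bases), while *Zfp352* and both Tcstv genes reach 100.0%.

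Values are DESeq2-normalised counts, that is, read counts divided by a factor for each sample, which the authors rounded to whole numbers. Depth, estimated from the spacing of low values, was 14302054 to 27022543 assigned reads per sample, so that 1 read was worth 0.702 to 1.322 normalised counts. NO replicates 2 and 3 and GS replicate 3 were the shallowest. Differences are in log2(normalised count + 1) with their standard errors from limma, fitted to the 18156 genes with a mean above 5 over the 9 samples. A gene was called when its Benjamini-Hochberg adjusted p over all genes was under 0.05 and its log2 difference was at least 1.0 in size. *Zscan4b* and *Tcstv1* were past the mean of 5 only through their NO values, and the other 6 also over the GS and DM samples alone.

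*Zscan4c* was the member whose rise was the most stable. Its normalised counts were 5, 6 and 9 in GS, 10, 4 and 12 in DM and 41, 146 and 47 in NO. Every NO sample lay above every sample of the other media. The log2 difference was 3.15 ± 0.54 (SE, n = 3 per medium, limma adjusted p = 0.0027) for NO against GS and 2.90 ± 0.54 (limma adjusted p = 0.00762) for NO against DM. Under the 18 alternative fits it was called each time in both comparisons, with adjusted p from 0.00148 to 0.0134 and from 0.00293 to 0.033.

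*Zscan4d* had the highest counts of the cluster in GS and DM, with 13, 13 and 20 in GS, 19, 18 and 20 in DM and 34, 288 and 80 in NO. The NO samples were again all above the rest, with NO replicate 1 the nearest to them. It rose by 2.55 ± 0.59 on the log2 scale against GS (limma adjusted p = 0.0119) and by 2.23 ± 0.59 against DM (limma adjusted p = 0.03). The first call held in all 19 alternatives (adjusted p from 0.000684 to 0.0477) and the second in 11 of 19 (0.00173 to 0.0808).

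*Zscan4b* was nearly silent outside NO, with counts of 2, 0 and 0 in GS, 3, 1 and 0 in DM and 12, 52 and 8 in NO. The NO samples did not overlap with the others. Its fitted log2 difference of 3.67 ± 0.83 against GS (limma adjusted p = 0.0103) and 3.20 ± 0.83 against DM (limma adjusted p = 0.0273) depends on the added count of 1. The first call held in 18 of 18 alternatives and the second in 13. The pooled reads, about 64 in NO against 2 in GS and 4 in DM, gave ratios of 30.2 (95% interval 8.03 to 255.0) and 19.0 (7.07 to 71.9), intervals that cover counting error only.

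*Zscan4e* had counts of 5, 8 and 3 in GS, 5, 5 and 9 in DM and 12, 83 and 18 in NO. The NO samples lay above all others, but NO replicate 1 by a few counts only. The log2 difference was 2.20 ± 0.65 against GS (limma adjusted p = 0.0357), called in 7 of 18 alternatives, and 1.95 ± 0.65 against DM, where it was not called (limma adjusted p = 0.0665, 95% interval 0.52 to 3.38).

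*Zscan4f* had counts of 5, 5 and 9 in GS, 7, 6 and 14 in DM and 13, 98 and 38 in NO. NO replicate 1, at 13, was below DM replicate 3, at 14, so that NO and DM overlapped. *Zscan4f* rose by 2.41 ± 0.64 on the log2 scale against GS (limma adjusted p = 0.0212), and the difference of 2.00 ± 0.64 from DM was not called (limma adjusted p = 0.0558, 95% interval 0.61 to 3.39). The call against GS held in 13 of 18 alternatives.

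*Tcstv3* had counts of 7, 5 and 11 in GS, 3, 10 and 4 in DM and 13, 147 and 33 in NO. The NO samples were above the rest, with NO replicate 1 close to the highest GS and DM samples. The log2 difference was 2.31 ± 0.75 against GS (limma adjusted p = 0.0484) and 2.77 ± 0.75 against DM (limma adjusted p = 0.031). The first call held in 4 of 18 alternatives and the second in 10 of 18, with adjusted p up to 0.159 and 0.0997.

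*Tcstv1* was the weakest of the set, with counts of 0, 0 and 1 in GS, 1, 1 and 2 in DM and 1, 42 and 10 in NO. NO replicate 1 was no higher than the control samples, and most of the counts in NO came from NO replicate 2. The fitted log2 difference of 2.96 ± 0.96 from GS was called (limma adjusted p = 0.0495) but stayed so in 4 of 18 alternatives, and that of 2.10 ± 0.96 from DM was not (limma adjusted p = 0.16). Pooled over the samples of a medium, about 42 reads in NO stood against 1 in GS, a ratio of 39.7 (95% interval 6.74 to 1600.0), and against 4 in DM, a ratio of 12.5 (4.53 to 47.9), again with counting error only.

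*Zfp352*, the member with the most unique transcript, had counts of 10, 2 and 17 in GS, 2, 5 and 14 in DM and 25, 124 and 48 in NO. No NO sample overlapped with the others. It rose by 2.69 ± 0.79 on the log2 scale against GS (limma adjusted p = 0.0335) and by 3.07 ± 0.79 against DM (limma adjusted p = 0.0264). These calls held in 11 and 13 of 18 alternatives.

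**Figure D2:**
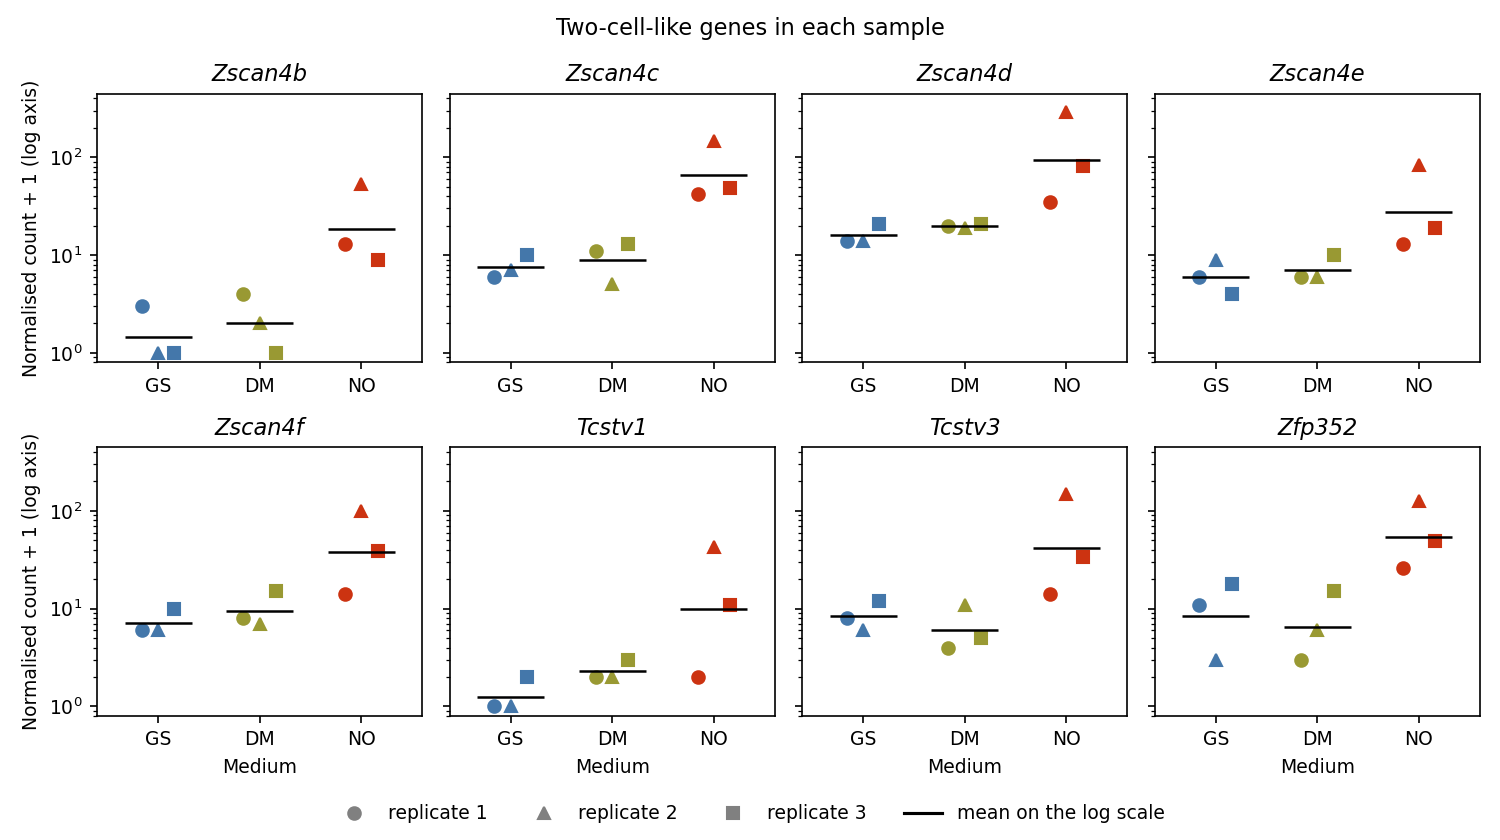
Each panel plots 1 gene, with the normalised count + 1 on a log axis for the 9 samples by medium. Marker shapes give the replicate number and bars the mean on the log scale. NO replicate 2 is the highest sample in all 8 panels, and NO replicate 1 of *Tcstv1* lies among the DM samples.

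All 8 genes were called higher in NO than in GS, beside 10.1% of the 18156 genes tested, and in 7 of the 8, *Tcstv1* being the exception, all NO samples were above all GS samples, as in 20.9% of genes. Against DM, 5 of 8 were called higher, beside 6.78% of genes, and 6 of 8 did not overlap, as in 18.1% of genes. Of the 6 genes that passed the filter without the NO samples, 6 were called higher than in GS and 4 higher than in DM, beside 8.82% and 5.78% of the 17521 such genes. With no filter, where 6.36% of 29069 genes were called higher than in GS and 4.06% higher than in DM, 4 of the 8 were called in each comparison, *Zscan4b*, *Zscan4c* and *Zscan4d* in both, *Zscan4f* against GS (adjusted p = 0.0387) and *Zfp352* against DM (adjusted p = 0.0444). The median log2 difference of the 8 was 2.62 against GS and 2.50 against DM, where the medians of all genes tested were -0.02 and 0.00. NO was the shared side of these comparisons, so they are not independent of each other.

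Between GS and DM no member was separated by the fit, in which all 9 samples share an estimate of spread for each gene. That estimate includes the spread of the NO samples. With limma 0 of 8 were called, beside 4.2% of all genes in either direction, of which 2.94% were higher and 1.27% lower in DM, and 0 of 8 had an unadjusted p under 0.05. For the 6 members past the filter in GS and DM, the log2 differences ran from -0.46 for *Tcstv3* to 0.41 for *Zscan4f*. The adjusted p of the 8 members lay between 0.68 and 0.88. The 95% intervals were wide, from -0.98 to 1.61 for *Zscan4d* and from -2.10 to 1.34 for *Zfp352*. The interval of every member included a log2 difference of 1. These intervals carry the NO spread too, and without NO replicate 2 the standard error of *Zscan4d* fell from 0.593 to 0.366. With only the GS and DM samples in the fit, 0 of 8 were called, beside 908 of the 18156 genes. *Zscan4b* and *Tcstv1* had only a few reads per medium in GS and DM, and no fold between these media is read from their fitted differences. In order of level, then, NO stood above GS and DM, and GS and DM were not separated.

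**Figure D3:**
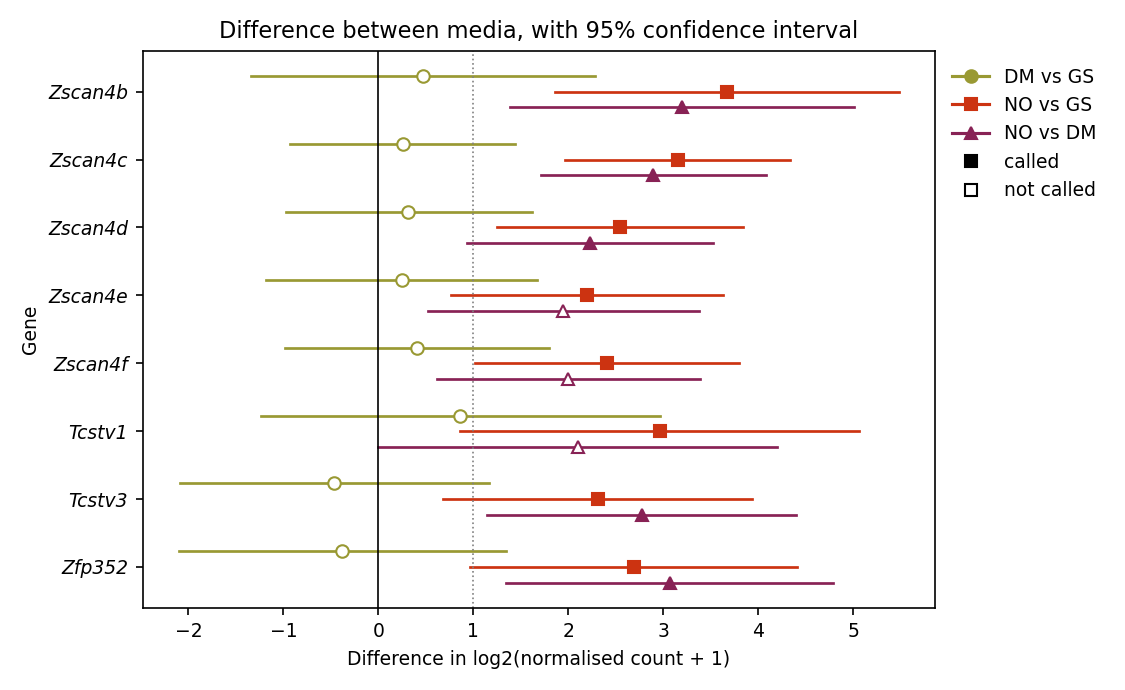
For each gene (y axis) the difference in log2(normalised count + 1) (x axis) is given with its 95% confidence interval from limma for 3 pairs of media, n = 3 samples each. Filled markers were called, and the dotted line marks a log2 difference of 1. All intervals for DM against GS cross 0, all those for NO against GS lie above it, and that for *Tcstv1* between NO and DM just reaches it.

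Summed over *Zscan4b* to *Zscan4f*, the normalised counts were 30, 32 and 41 in GS, 44, 34 and 55 in DM and 112, 667 and 191 in NO. The mean in NO was 9.42-fold that in GS and 7.29-fold that in DM. Reads shared between the paralogues are missing from this sum too. Per kilobase of exon, *Tcstv3* had the most uniquely placed counts of the 8 in NO, 82.6 normalised counts per kilobase, followed by *Zscan4d* at 59, *Zscan4c* at 34.3 and *Zfp352* at 28.9. Exon length was not corrected for how much of it could give such counts. Of 100-base windows, 92.2% were unique in *Tcstv3*, but 27.2% in *Zscan4c* and 10.5% in *Zscan4f*. The order is therefore one of counts and does not rank the levels of these genes. The values per kilobase are means over the NO samples and weigh NO replicate 2 most. In NO replicate 1 the order was *Zscan4c* at 18, *Tcstv3* at 16.7 and *Zscan4d* at 15, and in NO replicate 3 it was *Tcstv3* at 42.4, *Zscan4d* at 35.2 and *Zfp352* at 21.1. *Zscan4d* made up 37.2 to 46.3% of the summed Zscan4 level per kilobase in GS, 33.5 to 49.3% in DM and 28.3 to 40.1% in NO. *Zscan4c* made up 15.3 to 20.8%, 10.9 to 21.1% and 20.3 to 34.0%. The shares overlap between media, and the genes differ in how many unique windows they have.

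The 3 NO samples differed more among themselves than the samples of the other media. The SD of log2(normalised count + 1) of the 8 genes had a median of 1.42 in NO, 0.54 in GS and 0.66 in DM, where the median over all genes tested was 0.31, 0.21 and 0.24. The Zscan4 sum was 2.53-fold the DM mean in NO replicate 1, 15.05-fold in NO replicate 2 and 4.31-fold in NO replicate 3. NO replicate 2 was the highest sample for 8 of 8 members, and 7 of 8 had the order NO replicate 2, 3, 1, *Zscan4b* being the exception. That order was found in 28.7% of all genes tested, and in 89.4% of the 1231 genes called higher in NO than in DM, so it was not particular to the members.

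The calls rested in part on single libraries. With a library left out, the filter was still taken over all 9 samples, for the members and for all genes. *Zscan4b* and *Tcstv1* were thus tested without NO replicate 2 only because that sample counted towards their mean. Without NO replicate 2, *Zscan4b* (adjusted p = 0.0436), *Zscan4c* (0.00613) and *Zscan4d* (0.0169) were called against GS, 3 of 8, and *Zscan4c* alone against DM (0.018), 1 of 8, all by limma, beside 6.75% and 3.46% of all genes called higher. Without NO replicate 3, 3 were called against GS and 2 against DM, beside 7.95% and 4.15% of genes. Without NO replicate 1 all 8 were called in both, beside 12.7% and 10.4% of genes. The GS and DM libraries mattered as well, since 3, 3 and 5 members were called against GS without GS replicate 1, 2 or 3, 5 without DM replicate 2, and 2 members against DM without any 1 of the DM replicates. The shares of all genes called higher against GS were 8.37%, 7.76%, 7.13% and 9.25% in these fits, and those against DM were 3.98%, 4.03% and 4.63%. All 8 fitted differences stayed positive, but without NO replicate 2 they were smaller by over 1.5 times in fold for every member except *Zscan4c*. Against GS the log2 differences without it were 2.91 for *Zscan4b*, 1.73 for *Zscan4d*, 1.39 for *Zscan4e*, 1.72 for *Zscan4f*, 1.90 for *Tcstv1*, 1.39 for *Tcstv3* and 2.09 for *Zfp352*. Against DM they were 2.44 for *Zscan4b*, 1.41 for *Zscan4d*, 1.14 for *Zscan4e*, 1.31 for *Zscan4f*, 1.04 for *Tcstv1*, 1.85 for *Tcstv3* and 2.47 for *Zfp352*. *Zscan4c* stood at 2.58 and 2.33.

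Other genes of the two-cell-like state were taken from a fixed list of 62, of which 50 had values and 35 were tested. Relative to GS, 19 were called higher in NO and 1 lower, *Zscan5b*, beside 10.1% and 1.64% of all genes (11.7% in either direction). Relative to DM, 23 were higher and 1 lower, *Trim43b*, beside 6.78% and 1.77% (8.55% in either direction). Of the 26 that passed the filter without the NO samples, 15 and 16 were called higher, beside 8.82% and 5.78% of the 17521 such genes. Over all 35 tested, which include those past the filter only through NO, the median log2 difference was 2.21 against GS and 2.63 against DM. Between DM and GS, 0 were higher and 1 lower, again *Zscan5b*, with limma, a call that was lost when any GS or DM replicate or NO replicate 3 was left out. Single libraries weighed here too, and the shares of all genes called fell as well. Without NO replicate 2, 8 of the list were called in NO against GS and 6 in NO against DM, in either direction. The shares of all genes were then 8.01% and 4.44%. Without NO replicate 3 the counts were again 8 and 6, beside 9.29% and 5.41%. Without GS replicate 1, 2 or 3 the count against GS was 9, 9 and 10, beside 9.57%, 9.04% and 8.27%. Without DM replicate 1, 2 or 3 the count against DM was 10, 8 and 12, beside 5.16%, 5.07% and 5.66%.

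The 8 listed genes with the smallest adjusted p are described next. That choice fixes that they differed, so their p-values and calls describe them and add no support. *Ddit4l*, an inhibitor of mTOR signalling, had counts of 171, 210 and 234 in GS, 187, 197 and 172 in DM and 564, 1765 and 889 in NO. Its NO samples were far above the rest, with a log2 difference from DM of 2.37 ± 0.32 (limma adjusted p = 0.00232). *Tmem92*, a membrane protein gene, had counts of 17, 14 and 17, then 13, 14 and 19, then 49, 355 and 163, and rose by 3.15 ± 0.56 on the log2 scale against DM (limma adjusted p = 0.00616). The deubiquitinase gene *Usp17le* had counts of 16, 18 and 33 in GS, 27, 19 and 12 in DM and 52, 598 and 160 in NO, with NO again above both media (log2 difference from DM 3.15 ± 0.69, limma adjusted p = 0.0145). *Patl2*, known for RNA regulation in oocytes, rose by 1.03 ± 0.16 against DM (limma adjusted p = 0.0038), while its difference of 0.64 ± 0.16 from GS was under the size needed for a call (limma adjusted p = 0.0178). *Gm12794*, *Gm8300* and *Gm13119* had log2 differences from DM of 3.06, 3.19 and 2.63, all called. *BC080695*, with a difference of 2.79 that was also called, passed the filter only through its NO values. The 8 tested genes called in no comparison were *Pramel6*, *Pramel7*, *Gm5039*, *Gm4027*, *Alyref2*, *Calcoco2*, *Trim43a* and *Trim43c*.

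**Figure D4:**
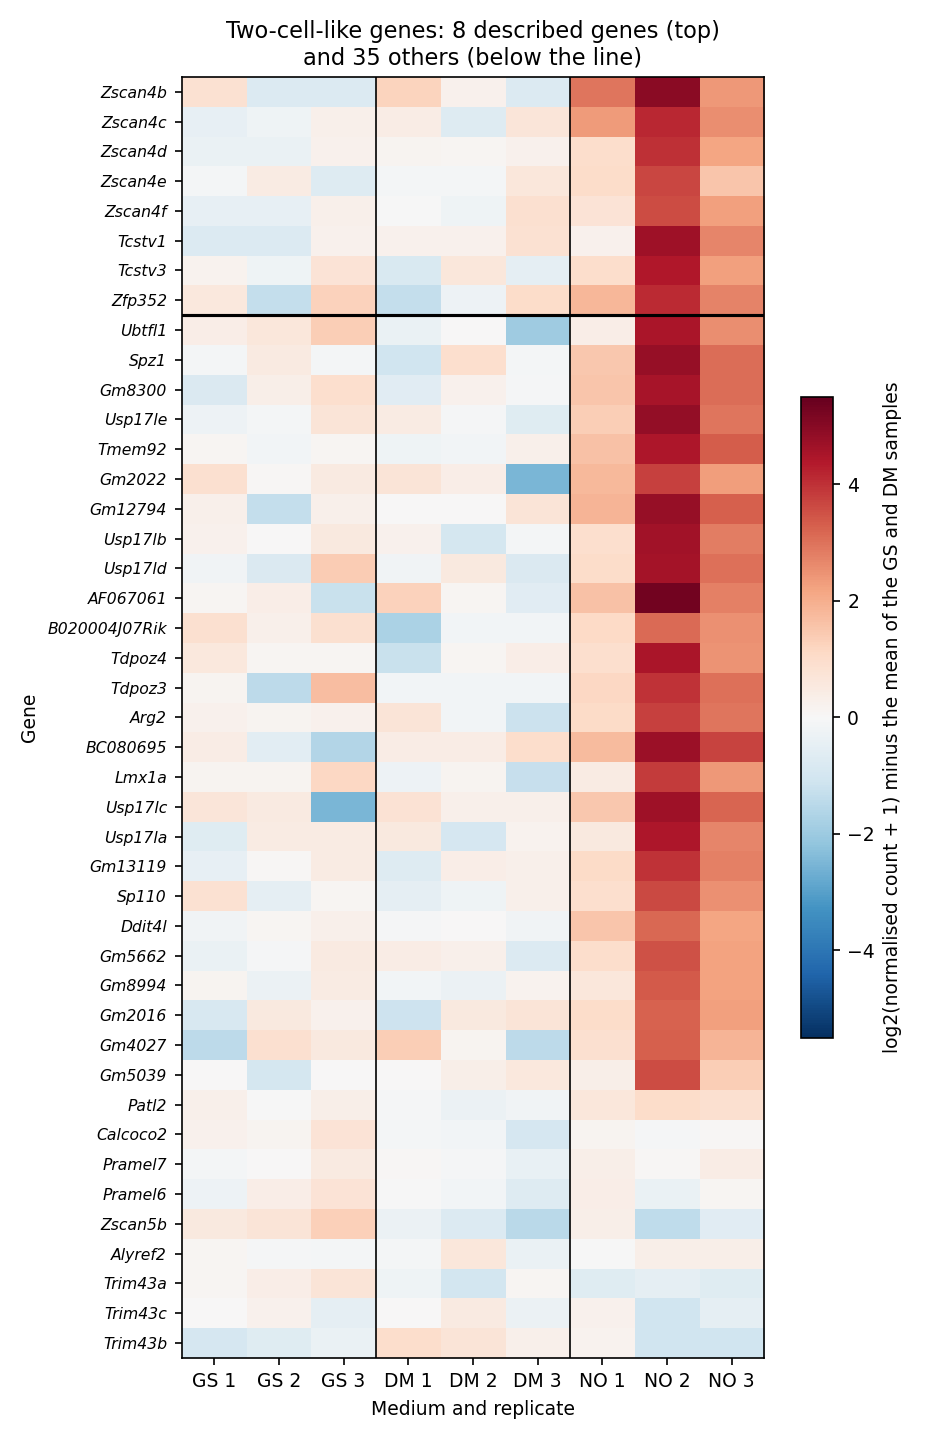
Colour gives log2(normalised count + 1) minus the mean of the 6 GS and DM samples, for the 8 members (above the line) and 35 other two-cell-like genes (below it, ordered by the difference of NO from DM) in the 9 samples. The column of NO replicate 2 is the darkest red for the members, and the lowest rows, from *Calcoco2* to *Trim43b*, show no red block in NO.

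Of 8 listed activators of the state 6 had values, and *Dppa3* alone was called. No values were found under the names *Dux* and *Duxf3*, so these were not assessed. The call of *Dppa3* was 1 of 6 for DM against GS and for NO against GS, beside 4.2% and 11.7% of all genes in either direction. For NO against DM it was 0 of 6, beside 8.55%. *Dppa3*, a maternal factor of the early embryo, went the other way from the members, with counts of 236, 160 and 250 in GS, 81, 42 and 48 in DM and 48, 10 and 25 in NO. It fell by 3.14 on the log2 scale from GS to NO (SE 0.47, limma adjusted p = 0.00136) and by 1.93 from GS to DM (SE 0.47, limma adjusted p = 0.0303). *Dppa2* and *Dppa4*, which encode chromatin proteins that act upstream of the two-cell programme, had log2 differences of 0.96 (limma adjusted p = 0.0172) and 0.86 (limma adjusted p = 0.00237) for DM against GS, under the size needed for a call, of 0.61 and 0.45 for NO against GS (limma adjusted p = 0.0581 and 0.0347) and of -0.35 and -0.42 for NO against DM (limma adjusted p = 0.273 and 0.0557). *Tbx3*, a T-box factor, had a log2 difference of 0.47 for NO against DM (limma adjusted p = 0.0383) and 0.09 for NO against GS (limma adjusted p = 0.655), also under that size. *Nelfa* and *Trp53* had log2 differences of -0.254 and -0.58 for NO against DM (limma adjusted p = 0.336 and 0.0861). Against GS they had 0.035 and -0.285 (limma adjusted p = 0.912 and 0.366).

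Of 33 tested genes listed as repressors of the state, only *Dnmt3a*, a de novo DNA methyltransferase, was called. That was 1 of 33 for DM against GS and for NO against DM, beside 4.2% and 8.55% of all genes in either direction. For NO against GS it was 0 of 33, beside 11.7%. The counts of *Dnmt3a* were 1146, 1103 and 1009 in GS, 4391, 3872 and 4148 in DM and 1859, 1225 and 1328 in NO. The DM samples stood apart, *Dnmt3a* being higher in DM than in GS by 1.93 ± 0.16 (limma adjusted p = 8.54e-05) and lower in NO than in DM by a log2 difference of -1.51 ± 0.16 (limma adjusted p = 0.00104). The list had 2 of 33 positive differences for NO against GS, with a median of -0.25, and 6 of 33 for NO against DM, with a median of -0.33. The medians of all genes tested were -0.02 and 0.00, and their share of positive differences was not counted. Of the 10 stem cell markers 2 and 3 were positive, with medians of -0.27 and -0.15, so such a lean was not particular to this list. Without regard to size, 5 had an adjusted p under 0.05 for NO against GS and 6 for NO against DM, all lower in NO. Of all genes, 6.64% and 5.24% were lower on that rule, and 20% and 14.2% differed in either direction. *Setdb1*, a histone methyltransferase that silences retroviral elements, had a log2 difference of -0.65 ± 0.14 from GS (limma adjusted p = 0.00877), and *Ncl*, the nucleolar protein nucleolin, one of -0.75 ± 0.16 from GS and -0.60 ± 0.16 from DM (limma adjusted p = 0.00809 and 0.03). *Trim28*, a partner of *Setdb1*, had -0.26 ± 0.17 and -0.32 ± 0.17 (limma adjusted p = 0.298 and 0.217). *E2f6*, also listed, had -0.01 ± 0.20 from GS and 0.50 ± 0.20 from DM (limma adjusted p = 0.976 and 0.115).

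Markers of cell types were measured in the same samples. All 10 embryonic stem cell markers had values in all samples, with summed counts of 114991 to 118112 in GS, 93824 to 103135 in DM and 59927 to 99104 in NO, the lowest being NO replicate 2. The 6 primitive endoderm markers summed to 108 to 165 in GS, 96 to 167 in DM and 200 to 539 in NO, and the 6 trophoblast markers to 632 to 657, 166 to 238 and 320 to 1130, with NO replicate 2 the highest NO sample in both. The lists did not move one way. For NO against DM, 1 of 4 tested primitive endoderm markers (*Gata6*), 3 of 6 trophoblast markers (*Krt7*, *Hand1* and *Tfap2c*) and 1 of 4 tested fibroblast markers (*Col1a1*) were called higher, and 1 of 10 stem cell markers, *Utf1*, lower (log2 difference -1.59). For NO against GS, *Gata6*, *Krt7*, *Hand1*, *Col1a1* and *Thy1* were called higher, and *Cdx2* (-3.03), *Eomes* (-1.47) and *Tfcp2l1* (-1.25) lower. Of all genes tested, 6.78% were called higher and 1.77% lower in NO than in DM, and 10.1% and 1.64% than in GS. The lists are too short to set single calls against these shares, and no change of cell type is read from them. The 7 fibroblast markers summed to 99 to 122, 231 to 249 and 213 to 296, mostly *Thy1*, and *Postn* was at 0 in all DM samples. No list had a marker at 0 in every NO sample. Across the NO samples the primitive endoderm, trophoblast and fibroblast sums had the order NO replicate 2, 3, 1, as most members had. The stem cell sum ran the other way, at 99104, 59927 and 92114 in NO replicates 1, 2 and 3. The part of these markers in the result was not tested.

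Genes outside the two-cell list shared the pattern of the cluster. Pearson's r with the mean of the 5 Zscan4 genes over the 9 samples was 0.981 for *Zscan4d*, which is part of that mean. It was 0.926 for *Tcstv1*, 0.899 for *Tcstv3* and 0.853 for *Zfp352*, the samples sharing library and depth. The 10 genes outside the members with the highest r, from 0.993 down to 0.99, were *Osbpl5*, *H19*, *Btg2*, *Hepacam*, *Slc4a11*, *Tuft1*, *Cul9*, *Endod1*, *Lhfpl1* and *Retsat*. *H19*, an imprinted noncoding RNA, had counts of 37, 45 and 48 in GS, 70, 57 and 72 in DM and 189, 1240 and 385 in NO. *Btg2*, an antiproliferative gene, had 1199, 1105 and 1203, then 1271, 1117 and 1168, then 2463, 6717 and 3423. Both were highest in NO replicate 2 and had no overlap between NO and the other media. Of the 100 genes most alike, among 18148, 0 were on the list of other two-cell-like genes. With 35 listed genes tested among so many, 0 would be usual for any list of that size. *Tcstv1*, *Tcstv3* and *Zfp352* themselves had a lower r than the gene ranked 30 (0.985). The ranking therefore cannot tell how alike the listed genes are, and no conclusion on them is drawn.

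**Figure D5:**
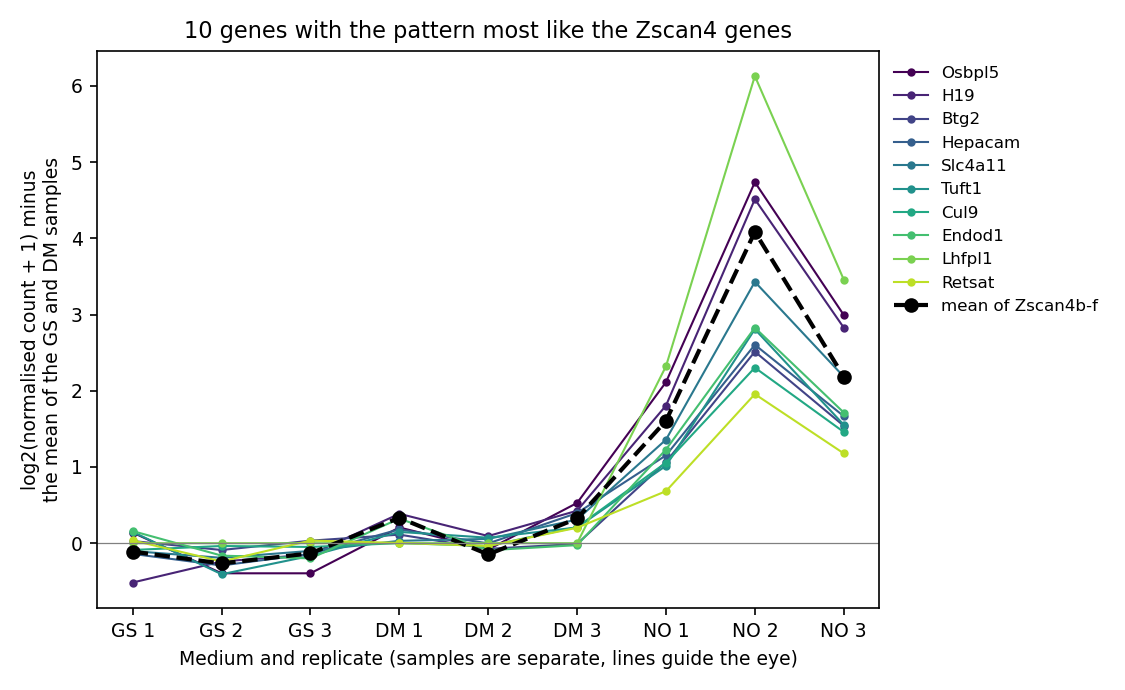
Lines give log2(normalised count + 1) minus the mean of the 6 GS and DM samples (y axis) for the mean of *Zscan4b* to *Zscan4f* (dashed) and the 10 genes most like it, over the 9 samples (x axis). All 11 lines are near 0 in GS and DM and peak at NO replicate 2.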

How the data were processed

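Total RNA of mESC was analysed in 9 samples, 3 per medium, with medium and replicate number taken from the labels. After removal of ribosomal RNA, the authors read the libraries on the Ion Torrent Proton platform, trimmed with Reaper, aligned to GRCm38 with STAR (2.4.0a) and counted exons with featureCounts (1.4.5-p1), leaving out reads that fit several positions or genes. Use of strand was not given in the sources used here. The deposited values are a score, the DESeq2-normalised count, which the authors gave in whole numbers. A column of sums was not used.

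Values were analysed as log2(value + 1), which understates changes of low genes, with limma 3.58.1 in R 4.3.3: all 9 samples in 1 fit, no covariate, mean-variance trend, two-sided tests. The fit was tested on simulated data. Thresholds of a mean above 5, an adjusted p under 0.05 and a log2 difference of at least 1.0 are those of the study. Ratios of pooled reads used estimated depths and exact 95% intervals.

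The members, gene lists and tests were chosen with earlier results of these data known. All members were named. Of each list of other two-cell-like genes, activators and repressors, up to 8 genes called in any comparison were named by smallest adjusted p, together with the 10 genes of highest correlation. Genes named for being called in no comparison, and *Setdb1*, *Ncl*, *Trim28*, *E2f6*, *Dppa2*, *Dppa4*, *Tbx3*, *Nelfa*, *Trp53*, *Zscan5b* and *Trim43b*, were chosen after their values were seen.

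Deviations from group means of samples with the same replicate number correlated at 0.159 to 0.296 between NO and DM. They correlated at -0.106 to 0.05 between NO and GS and at -0.232 to 0.022 between DM and GS. Samples of different number reached 0.22, for DM replicate 3 with GS replicate 1. Correlations of this size therefore do not settle whether the numbers pair the samples, and the labels do not say. Alternatives comprised a replicate block, other filters, pseudocounts, scalings, weights and thresholds, only the 6 samples compared, and leaving out each replicate. Where samples were left out, the filter was still taken over all 9 samples.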

Additional observations from a re-analysis of the deposited data

How the results depend on the processing

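*Zscan4c* was called in both comparisons with NO, and *Zscan4b* and *Zscan4d* in NO against GS, under every alternative in which they could be tested. *Zscan4b* was tested without NO replicate 2 only because the filter still counted that sample. Over all members and alternatives, 94 calls for NO against GS were kept and 51 were lost. For NO against DM 115 outcomes stayed as in the main fit, called or not, while 26 calls were lost and 4 gained. Those 115 include *Zscan4e*, *Zscan4f* and *Tcstv1* staying uncalled in 17, 16 and 17 of 18 fits. No fitted difference between NO and another medium changed sign. Over all genes, the 2127 called for NO against GS became 2156 with no minimum mean and 1933 with quantile normalisation. They became 1968 with no trend, 1893 with vooma weights and 1893 with only the 6 samples compared. In these fits the members, given next, lost a larger part of their calls for NO against GS than all genes did. The 1552 genes called for NO against DM became 1133 with no trend and 1271 with vooma weights. Of the 8 members called for NO against GS, 4 were called with no minimum mean, with quantile normalisation, with no trend and with vooma weights, 5 with only the 6 samples compared, 3 to 8 with 1 replicate left out, and 1 with a minimum mean of 50, where *Zscan4d* alone could be tested. For NO against DM the 5 members called became 2 with no trend, with vooma weights and with the 6 samples compared, 1 with a minimum of 50, and 1 to 8 with 1 replicate left out. The other two-cell-like genes called numbered 20 for NO against GS, becoming 9 with a minimum of 50, 11 with no trend, 8 with vooma weights and 8 to 26 with 1 replicate left out. For NO against DM they numbered 24, becoming 10 with a minimum of 50, 10 with no trend, 9 with vooma weights, 7 with the 6 samples compared and 6 to 26 with 1 replicate left out. For DM against GS the 1 called became 0 with no minimum mean, a minimum of 50, quantile normalisation, no trend or a minimum log2 difference of 2, 2 with the 6 samples compared, and 0 to 2 with 1 replicate left out. The cause of these changes was not tested, except that a higher minimum leaves fewer genes. Between DM and GS the sign of the fitted difference turned on leaving out 1 replicate for *Zscan4b* (-0.028 to 1.0), *Zscan4c* (-0.014 to 0.675), *Zscan4e* (-0.047 to 0.538) and *Zfp352* (-1.122 to 0.174). Scaling to equal totals moved the median of all genes for NO against GS by 0.108, and quantile normalisation moved it by -0.099.

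With the replicate block, 8 members were called for NO against GS, 5 for NO against DM and 0 for DM against GS, as without it, and 21, 23 and 1 of the other two-cell-like genes. The block changed the call of no member. Over all genes, the 763 called for DM against GS became 505 with a minimum mean of 50, 1215 without a fold threshold and 242 with a minimum log2 difference of 2. The 2127 for NO against GS became 1206, 3640 and 926, and the 1552 for NO against DM became 936, 2587 and 660, 912 with the 6 samples compared and 806 to 2512 with 1 replicate left out. At this depth *Zscan4b* and *Tcstv1* had at most about 4 reads per medium outside NO, and a single read moves their fitted differences.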
